A study of Mus musculus with 18 samples.

Results

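Genes that encode proteins of the lipid droplet were examined in differentiated wt1-SAM brown adipocytes: the 5 perilipins Plin1, Plin2, Plin3, Plin4 and Plin5, and Cidec, Fitm1, Fitm2 and Bscl2. They were taken from the count table by their symbols, which gave 9 of 54347 genes, and 8 of them were among the 14949 genes that passed the filter on low counts. wt1-SAM is an immortalised line of mouse brown preadipocytes that carries the SAM machinery for CRISPR activation, and every group shares this line, so that the data describe a single line under culture. All cells were differentiated with rosiglitazone, thyroid hormone, dexamethasone, insulin, indomethacine and IBMX, and rosiglitazone, an agonist of the adipogenic receptor PPARγ, stayed in the medium afterwards. On day 4 of differentiation 500000 cells per well were transfected with 1.4 µl of a 10 µM locked nucleic acid gapmer (LNA), a short modified antisense oligonucleotide that directs cleavage of the RNA it binds. The non-targeting ctrlA was compared with LNA1 and LNA2, both directed against the long non-coding RNA Gm15551. Cells were harvested on day 7, either unstimulated or after 24 h with 1 µM isoproterenol, an agonist of β-adrenergic receptors. This gave 6 groups of 3 libraries (ctrlA, LNA1 and LNA2, each unstimulated or with isoproterenol), with the replicate numbers 2, 3 and 4 in each group. The sources do not say whether the 3 libraries of a group came from separate cultures, so p values measure only the spread between these libraries, which may be technical.

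A lipid droplet is a core of triglycerides and sterol esters within a phospholipid monolayer, and the proteins on that monolayer decide how lipases reach the stored lipid. Perilipins coat the droplet. Plin1 is the main coat protein of adipocytes, holds the lipase co-activator Abhd5 at rest and releases it once it is phosphorylated after β-adrenergic stimulation. Plin2 is found on droplets of nearly all cell types, Plin3 moves between cytosol and nascent droplets, Plin4 associates with small new droplets, and Plin5 is known from oxidative tissues such as heart and brown fat, where it links droplets to mitochondria. Cidec (Fsp27) sits at contacts between droplets and drives lipid transfer from smaller to larger ones. Fitm1 and Fitm2 are membrane proteins of the endoplasmic reticulum that act when droplets bud, Fitm1 mainly in muscle, and Bscl2 encodes seipin, which organises the sites where droplets form.

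The oligonucleotides that define the LNA groups are shown because every LNA comparison rests on them. They are written 5′ to 3′, with the longest stretch that is complementary to a transcript of any of the 9 genes in capitals.
ctrlA: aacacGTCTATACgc
LNA1: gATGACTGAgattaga
LNA2: AAGTAGCAcggcgttg
LNA1 and LNA2 were complementary over all 16 bases to Gm15551 (chr3:126667329-126669044, minus strand, GRCm38, annotated as antisense) and to no other of the 54094 genes searched, whereas the longest match of ctrlA to Gm15551 had 4 bases. The capitals of ctrlA mark 8 bases complementary to Plin4, and 5.24% of the genes held a match of at least that length. Those of LNA1 mark 8 bases complementary to Plin3 (22.9% of the genes), and those of LNA2 mark 8 bases complementary to both Plin2 and Plin4 (10.3%), while a further 8-base match of LNA2 lay in Fitm2. Such short matches are common and are given as a description only. The search covered annotated spliced transcripts and unbroken matches, so introns and matches with mismatches were not examined.

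Library totals ranged from 9167560 to 19723021 counts. The libraries of replicate 2 stood apart: mitochondrial transcripts took 7.86% to 9.79% of their counts against 2.56% to 4.97% in the other 12 libraries, and an annotated ribosomal RNA gene took 2.88% to 14.3% against 0.285% to 1.04%. The 6 adipocyte markers summed to 12590 to 28460 CPM (counts scaled to the TMM-normalised library size), with 18460 to 28460 CPM in the libraries of replicate 2. Of the 8 brown adipocyte markers 7 were tested, and Ucp1, Cidea and Ppargc1a were called higher with isoproterenol, against 2.02% of all genes tested. The others were not called. Their log2 fold changes were 0.36 (Elovl3, adjusted p = 0.111, edgeR), 0.09 (Cox7a1), 0.06 (Cox8b) and −0.19 (Prdm16), and the list median was 0.36. Ucp1 was at 1.12 ± 0.346 CPM unstimulated and 12.9 ± 2.25 CPM with isoproterenol (SD, n = 9 each), whereas Dio2 had at most 4 counts in any library. Gm15551 itself had 42 counts over the 6 ctrlA libraries, 24 over those of LNA1 and 27 over those of LNA2, so its fold changes (log2 −0.70, SE 0.59, and −0.43, SE 0.57, adjusted p of edgeR 0.9999 for both, from a fit without the filter) were not distinguishable from 0 at this depth. The study itself reports that both LNAs robustly lowered Gm15551 by day 7, relative to its non-targeting LNA.

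Levels of the genes were first compared with each other as CPM per kilobase of annotated exon. The length was that of the merged exons of all annotated transcripts of a gene, and the order and shares below rest on it. In CPM without this length, Plin2 was above Cidec in some libraries, such as stimulated LNA2 cells of replicate 3 (1808 against 1556 CPM). Cidec stood highest with a median of 806 CPM per kb over the 18 libraries (range 580 to 1041), followed by Plin2 with 373 (260 to 515). Plin4 (median 160), Plin1 (146) and Fitm2 (142) formed a middle group, Plin3 (31.7), Bscl2 (11.03) and Plin5 (6.49) lay lower, and the median of Fitm1 was 0. The highest 2 genes held their places in all 18 libraries, although the range of Plin2 overlapped that of Plin4 (109 to 282). Plin4 was above Plin1 in 13 of 18 libraries and Plin1 above Fitm2 in 14 of 18, with overlapping ranges, so that the order within the middle group was not settled beyond the spread. Fitm2 was above Plin3 and Plin3 above Bscl2 in all 18 libraries without overlap. Bscl2 was above Plin5 in 16 of 18 libraries, and their ranges overlapped (8.55 to 14.0 against 2.95 to 12.2 CPM per kb).

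**Figure D1:**
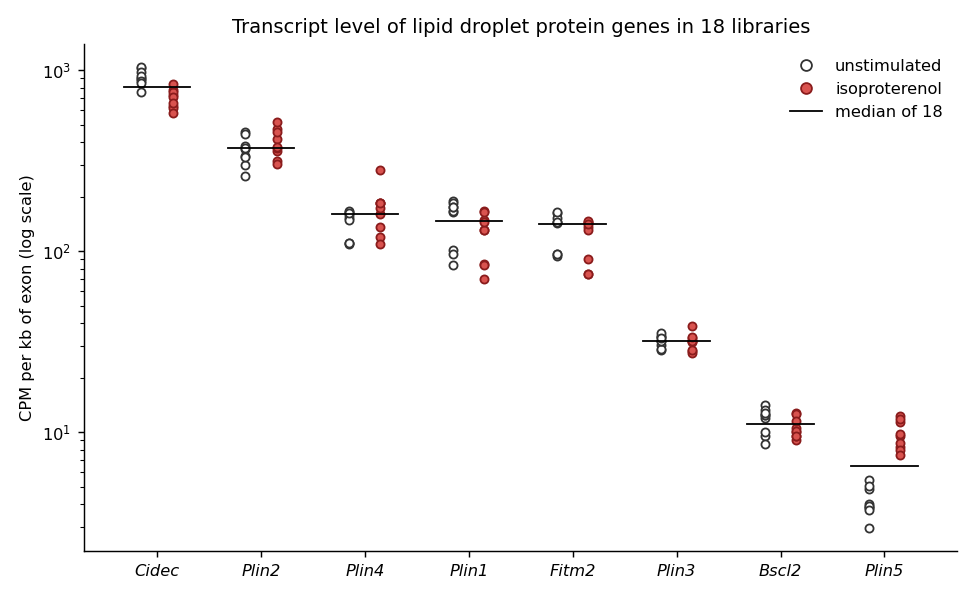
Level of the 8 genes that passed the filter, in CPM per kb of exon on a log axis, with 1 point per library (open, unstimulated; filled, isoproterenol; 9 each) and a line at the median of 18. Cidec lies highest, the points of Plin2 overlap those of Plin4 only in the highest library of Plin4, and Plin5 is the only gene of the 8 whose open and filled points do not overlap.

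Among the 5 perilipins alone, Plin2 made up 52.5% ± 8.76 of the summed CPM per kb in unstimulated and 54.4% ± 8.08 in stimulated cells (SD, n = 9). Plin1 accounted for 21.5% ± 5.58 and 16.97% ± 4.37, Plin4 for 20.7% ± 3.44 and 23.0% ± 4.38, and Plin3 for 4.63% ± 0.189 and 4.32% ± 0.250. Plin5 was the smallest part in both states, with 0.609% ± 0.115 unstimulated and 1.33% ± 0.260 with isoproterenol. The shares also differed with the replicate number. Plin2 made up 64.4% ± 1.40 in the libraries of replicate 2 (SD, n = 6) and 48.0% ± 2.58 in the others (n = 12), Plin1 12.9% ± 1.48 and 22.4% ± 3.24, and Plin4 17.2% ± 1.36 and 24.2% ± 2.40. These shares are relative, so that a rise of 1 gene lowers the others.

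The 9 genes lie on 7 chromosomes, with Plin4, Plin5 and Plin3 on the minus strand of chromosome 17 in the order of their coordinates. Plin4 (chr17:56100591-56109803) ends 1797 bases before Plin5 (chr17:56111601-56117596) begins, and Plin3 (chr17:56277476-56292873) follows 159879 bases further on. Plin1 lies at chr7:79720218-79732903, Plin2 at chr4:86648386-86670060, Cidec at chr6:113424634-113435760 and Fitm2 at chr2:163466379-163472629, all on the minus strand, while Fitm1 (chr14:55575617-55576954) and Bscl2 (chr19:8837467-8848683) are on the plus strand (GRCm38). All 9 are annotated as protein coding. Exons of Bscl2 overlap those of Gng3 on the opposite strand over 398 bases and those of AC129217.1 on the same strand over 239 bases, and exons of Fitm2 overlap 2310001K24Rik on the opposite strand over 227 bases, so that the counts of these genes may hold reads of their neighbours. Plin4 shares 17 bases with Hdgfl2 and Fitm1 109 bases with Gm15932, both on the opposite strand. Plin1, Plin2, Plin3, Plin5 and Cidec overlap no annotated exon of another gene.

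The question of the first comparison was what β-adrenergic stimulation does to these transcripts. Isoproterenol raised Plin5 2.31-fold, whereas Cidec was 0.764-fold the unstimulated level and the other 6 genes tested lay between 0.841-fold (Plin1) and 1.19-fold (Plin4). Averaged over the 3 LNAs (9 against 9 libraries), 1 of 8 genes was called at an adjusted p below 0.05 and an absolute log2 fold change above 0.5, against 3.2% of all genes tested (2.02% higher and 1.18% lower). The median log2 fold change of the 8 genes was −0.07 and that of all genes tested −0.0021. Without the fold limit Cidec was called as well, which made 2 of 8 genes against 4.58% of all genes.

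Plin5 had 11.4, 8.01 and 10.1 CPM in unstimulated ctrlA cells (replicates 2, 3 and 4) and 25.5, 23.7 and 24.6 CPM after isoproterenol. In LNA1 cells it had 7.98, 8.34 and 10.48 CPM unstimulated and 17.2, 19.8 and 18.2 CPM stimulated, and in LNA2 cells 8.10, 6.17 and 7.70 CPM against 16.6, 20.4 and 15.7 CPM. Every stimulated library was thus above every unstimulated one, with 15.7 CPM as the lowest stimulated and 11.4 CPM as the highest unstimulated value. The groups did not overlap in this way for 1.18% of all genes. These levels rest on 87 to 369 counts per library, far fewer than those of the other perilipins.

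The log2 fold change of Plin5 was 1.21 (SE 0.0976, adjusted p = 1.91e-06, edgeR quasi-likelihood test). Plin5 was higher in 9 of 9 pairs of libraries with the same LNA and replicate number, by 0.80 to 1.72 on the log2 scale. Over 18 fits without 1 library each the log2 fold change stayed between 1.17 and 1.25 with adjusted p of at most 1.44e-05. Within the single LNAs it was 1.32 in ctrlA (SE 0.168, adjusted p = 7.68e-04, edgeR), 1.04 in LNA1 (SE 0.169, adjusted p = 0.00583) and 1.26 in LNA2 cells (SE 0.170, adjusted p = 0.00227). Plin5 was therefore the gene called in each of the 3 comparisons within an LNA, where 0.488%, 0.702% and 0.395% of all genes were called. In LNA1 cells the call was lost without the unstimulated LNA1 library of replicate 3, with an adjusted p of 0.0529.

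**Figure D2:**
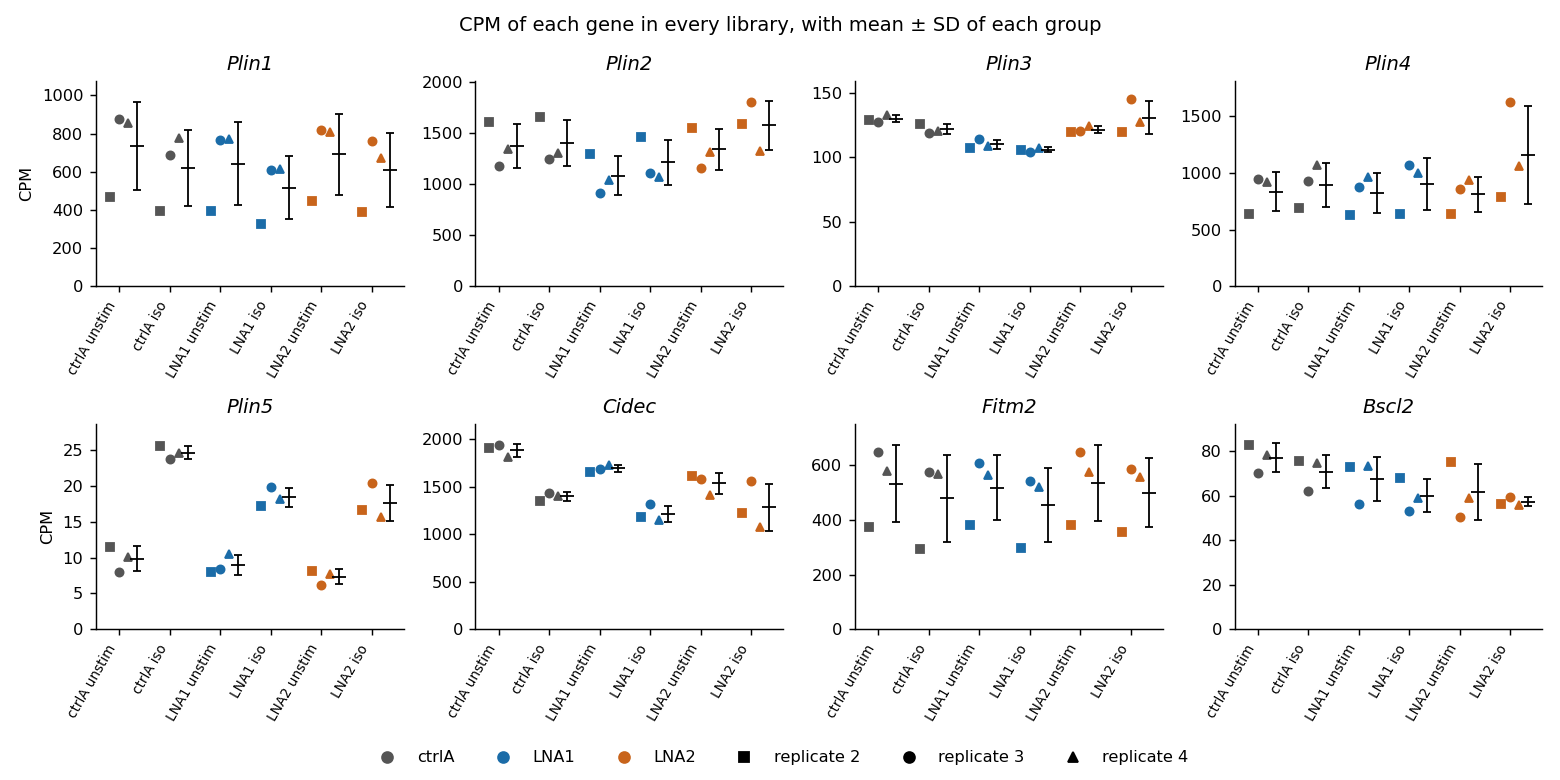
CPM of the 8 genes in each of the 18 libraries, with groups on the x axis, symbols for the replicate number and the mean ± SD of each group (n = 3) beside the points. Plin5 steps up with isoproterenol under each LNA and Cidec steps down, while Plin1, Plin4 and Fitm2 are lowest in the libraries of replicate 2.

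Cidec, the most abundant of these transcripts per length, moved the other way. In ctrlA cells it went from 1908, 1933 and 1806 CPM to 1352, 1437 and 1399 CPM, and in LNA1 cells from 1652, 1689 and 1730 CPM to 1181, 1312 and 1149 CPM. In LNA2 cells it went from 1612, 1579 and 1407 CPM to 1219, 1556 and 1077 CPM. Only the stimulated libraries of replicate 3 in ctrlA cells (1437 CPM) and in LNA2 cells (1556 CPM) were above the lowest unstimulated value of 1407 CPM. The groups thus overlapped over all LNAs and within LNA2 cells, but not within ctrlA or LNA1 cells. Within ctrlA cells those of Plin3 did not overlap either, at a log2 fold change of −0.09. The share of all genes without overlap was not counted for 3 against 3 libraries, so this is a description only.

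The log2 fold change of Cidec was −0.39 (SE 0.0826, adjusted p = 0.0117, edgeR), and Cidec was lower in 9 of 9 pairs. Its adjusted p was below 0.05 in 18 of 18 fits without 1 library (0.00189 to 0.0314), but it was 0.219 when genes with low counts were not removed. Since the change is smaller than the fold limit, Cidec was not called under the rule with that limit. Within the single LNAs its log2 fold change was −0.43 in ctrlA, −0.48 in LNA1 and −0.26 in LNA2 cells, with adjusted p of 0.404, 0.228 and 0.970 (edgeR) and, with the replicate block, of 0.00449, 0.00156 and 0.0681.

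The sequences just upstream of Plin5 and Cidec are shown because these are the 2 genes on which the comparison with isoproterenol turns. They come from RefSeq (GRCm38.p6), run 5′ to 3′ on the minus strand, and are cut where the annotated gene begins. Capitals mark the motifs AGGTCA (bound by many nuclear receptors) and CCAAT on either strand.
Plin5, chr17:56117597-56117798: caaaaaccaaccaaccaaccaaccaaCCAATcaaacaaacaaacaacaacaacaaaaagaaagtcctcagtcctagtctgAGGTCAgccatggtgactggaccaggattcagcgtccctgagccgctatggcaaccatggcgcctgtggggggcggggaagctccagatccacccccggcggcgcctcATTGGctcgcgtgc
Cidec, chr6:113435761-113436010: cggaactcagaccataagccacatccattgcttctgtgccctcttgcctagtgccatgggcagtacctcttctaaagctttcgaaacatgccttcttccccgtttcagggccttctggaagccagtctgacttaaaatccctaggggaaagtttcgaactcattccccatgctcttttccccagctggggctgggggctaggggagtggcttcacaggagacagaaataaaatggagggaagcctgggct
In the 250 bases before the outermost start site of Plin5 in RefSeq there was 1 match to AGGTCA (bases −170 to −165) and there were 2 to CCAAT (bases −224 to −220, and −62 to −58 on the other strand, where it reads ATTGG). The first of these motifs occurs in 14.0% and the second in 33.9% of all 32851 windows of that length before a start site. Of the 9 genes 3 held the first (Plin2, Plin5 and Bscl2) and 5 the second (Plin2, Plin3, Plin4, Plin5 and Bscl2) in any of their windows. Counted by window, as the shares of all windows are, these were 3 and 5 of 13. The windows of Cidec held neither, nor did any of the 13 windows of the 9 genes hold CACGTG (6.02% of all windows) or TATAAA (12.4%). TGACG, the core of the cAMP response element, was found before Fitm1 only (17.8% of all windows). Both strands were searched, no match in these windows overlapped another, and a match is a run of letters, not a site of binding.

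Of the remaining perilipins, none was called with isoproterenol. Plin1 ranged from 392 to 876 CPM (median 772) unstimulated and from 325 to 775 CPM (median 612) stimulated, so that the groups overlapped. It was nevertheless lower in 9 of 9 pairs, by 0.11 to 0.35 on the log2 scale, and its log2 fold change was −0.25 (SE 0.220, adjusted p = 0.737, edgeR). Within pairs the spread was small, since the libraries of replicate 2 lay at 325 to 470 CPM and the other 12 at 610 to 876 CPM. With the replicate number as a block, which removes that offset, the log2 fold change of Plin1 was −0.25 (SE 0.0366, adjusted p = 8.57e-05).

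Plin4 went from a median of 877 CPM (630 to 963) to 997 CPM (637 to 1627) and was higher in 8 of 9 pairs (log2 fold change 0.25, SE 0.167, adjusted p = 0.602; 0.0164 with the block, edgeR). The highest library was that of stimulated LNA2 cells of replicate 3. Without it the log2 fold change of Plin4 was 0.14, and its pair alone differed by 0.92 on the log2 scale, against −0.03 to 0.30 for the other pairs. This pair, LNA2 cells of replicate 3, also had the highest ratio of the 9 for Plin1 (−0.11), Plin2 (0.64), Plin3 (0.275), Plin5 (1.72), Cidec (−0.02) and Bscl2 (0.24), and thus for every gene of the 8 but Fitm2. Its stimulated library had the lowest mitochondrial share of all libraries (2.56%) and the highest share of counts in the lipid droplet genes (0.683%). The part of this library's composition in these ratios was not tested. Plin2 was higher in 8 of 9 pairs as well, at a median of 1292 CPM (915 to 1607) unstimulated and 1329 CPM (1067 to 1808) stimulated, and the log2 fold change by edgeR was 0.14 (SE 0.116, adjusted p = 0.702; 0.09 without the stimulated LNA1 library of replicate 2). Plin3 had 120 ± 8.97 CPM in unstimulated and 120 ± 12.9 CPM in stimulated cells (SD, n = 9), with a log2 fold change of −0.01 (SE 0.0595).

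The proteins of droplet formation were not called either. Fitm2 was lower in 9 of 9 pairs, at 528 ± 116 CPM unstimulated and 477 ± 123 CPM stimulated (log2 fold change −0.15, SE 0.188, adjusted p = 0.860; 0.00732 with the block, edgeR). Without the stimulated ctrlA library of replicate 2 the log2 fold change was −0.07. Like Plin1 it was lowest in the libraries of replicate 2 (295 to 382 CPM, against 518 to 649 CPM in the other 12). Bscl2 had 68.6 ± 10.97 and 62.6 ± 8.21 CPM and was lower in 8 of 9 pairs (log2 fold change −0.13, SE 0.0939, adjusted p = 0.638, edgeR), with −0.07 without the unstimulated LNA2 library of replicate 2. Fitm1 had 8 counts in all 18 libraries together and 0 to 2 in each, under the floor of 3 counts (0.170 to 0.306 CPM depending on the library), so no fold is given. With the block and without a fold limit, a combination chosen after the data were seen, 5 of 8 genes were called (Plin5 and Plin4 higher, Plin1, Cidec and Fitm2 lower), but so were 26.4% of all genes. Within the single LNAs this combination called 3 of 8 genes in ctrlA cells (7.88% of all genes), 3 in LNA1 cells (9.84%) and 2 in LNA2 cells (9.55%).

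**Figure D3:**
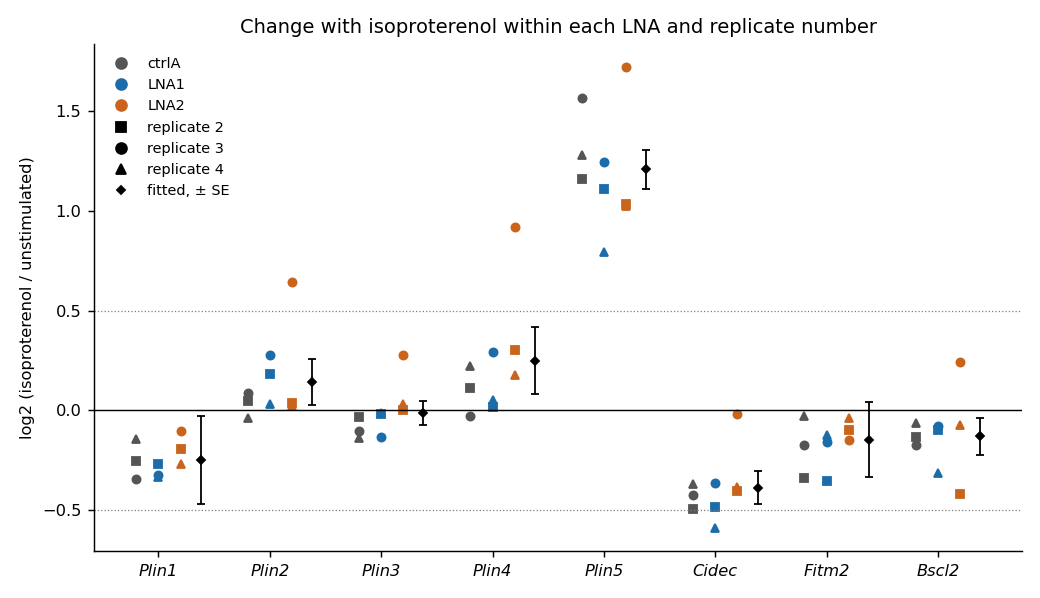
Log2 ratio of isoproterenol over unstimulated CPM for each of 9 pairs per gene (colour, LNA; symbol, replicate number), with the fitted log2 fold change ± SE as a diamond and dotted lines at the fold limit of 0.5. Plin5 lies above the limit in all 9 pairs and Cidec below 0 in all 9, whereas the SE of Plin1 and Fitm2 is wide although each of their 9 pairs is below 0.

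Markers of other cells moved with isoproterenol as well. Of the 6 preadipocyte markers, which summed to 41.2 to 57 CPM unstimulated and 42.7 to 88.6 CPM stimulated, Ly6a rose (log2 fold change 1.58, SE 0.413, adjusted p = 0.0416, edgeR). The other 3 tested were not called and had log2 fold changes of −0.03 (Pdgfra), −0.34 (Pdgfrb) and −0.18 (Cd34), with a median of −0.10 over the 4. Of the 5 macrophage markers, which summed to 8.23 to 28.6 and 12.2 to 44.3 CPM, Cd68 rose (0.90, SE 0.176, adjusted p = 0.00618). Csf1r, the other one tested, had 0.09 (SE 0.473, adjusted p = 0.982), whereas Ptprc had at most 3 counts and Adgre1 at most 2 in any library. The 4 endothelial markers summed to 1.77 to 3.99 CPM and the 4 muscle markers to 1.16 to 4.80 CPM, with Kdr and Myod1 at no more than 1 count in any library. None of these was called, except Acta1 with the block (log2 fold change 0.68, adjusted p = 0.00211; 0.0908 without it). Of the 6 adipocyte markers, all tested, Adipoq fell (log2 fold change −0.71, SE 0.141, adjusted p = 0.00730, edgeR). The others were not called, with Fabp4 at −0.45, Cd36 at −0.39, Cebpa at −0.12, Pparg at −0.0013 and Lpl at 0.00044, and the median of the list was −0.25. The part of these genes in the changes of Plin5 and Cidec was not tested. In bulk RNA fewer cells of a type and less RNA per cell cannot be told apart.

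Other genes of the droplet and of its lipid are given from lists written out for this purpose. Of 25 other lipid droplet proteins 24 were tested, and with isoproterenol 2 rose and 1 fell (median log2 fold change −0.10), where 2.02% of all genes were called higher and 1.18% lower. Cidea rose with a log2 fold change of 1.27 (edgeR, SE 0.197, adjusted p = 0.00110) and Cideb with 1.25 (SE 0.146, adjusted p = 9.24e-05). Both are relatives of Cidec, so that within the family Cidec had the opposite sign. Cidea went from 7.34 ± 2.00 to 17.7 ± 4.78 CPM and Cideb from 2.90 ± 0.802 to 6.79 ± 1.87 CPM (SD, n = 9), while Cidec stayed at or above 1077 CPM in every library. Nsdhl, a sterol dehydrogenase that also resides on droplets, fell (log2 fold change −0.83, SE 0.0891, adjusted p = 3.65e-05). With the replicate block 2 rose and 3 fell, against 3.87% of all genes called higher and 3.13% lower.

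Of the 12 lipolysis genes, which hold the lipases that Plin1 and Plin5 regulate, all were tested and 1 fell, Pnpla3 (log2 fold change −0.53, SE 0.110, adjusted p = 0.00946, edgeR). The median of the list was −0.26, and with the block 2 fell. The shares of all genes called lower are those just given. Of 16 genes of triglyceride synthesis 14 were tested and 3 rose (median of the list 0.01, 2.02% of all genes called higher, and 3 rose with the block too): Pck1, which supplies glycerol phosphate by glyceroneogenesis (1.29, SE 0.255, adjusted p = 0.00683), Gk, the glycerol kinase (0.56, SE 0.131, adjusted p = 0.0212), and Lpin3, a phosphatidate phosphatase (0.50, SE 0.0979, adjusted p = 0.00651). In the LNA comparisons no gene of these 2 lists was called without the block, and with it 1 lipolysis gene rose with LNA1, Pnpla3 (2.08% of all genes called higher). Of the other lipid droplet proteins 1 rose with LNA2, Ldaf1, the partner of seipin (0.50, SE 0.112, adjusted p = 0.0346), against 0.983% of all genes called higher. With the block 3 rose with LNA2 (3.77% of all genes), while with LNA1 0 rose (1 with the block).

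The second question was whether the LNAs against Gm15551 changed these transcripts. Averaged over both stimulation states (6 against 6 libraries), 0 of 8 genes were called with LNA1 and 0 of 8 with LNA2, where 0.442% and 1.42% of all genes were called. At an unadjusted p below 0.05 there were 2 of 8 genes for each LNA with edgeR, against 6.01% of all genes with LNA1 and 10.6% with LNA2, and DESeq2 under the same rule also called 0. All 8 genes had a negative log2 fold change with LNA1 (median −0.22, against −0.02 over all genes), and 4 of 8 with LNA2 (median −0.03, against −0.02). Signs of the smallest changes were not stable. With LNA1 Plin4 had −0.0048, but 0.0256 with a filter at 5 CPM. Fitm2 had −0.06 with LNA1, but 0.07 without the stimulated LNA1 library of replicate 2. With LNA2 Plin3 had 0.00436, but −0.0107 without a filter. Both LNAs are compared with the same ctrlA libraries.

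Plin3 had the narrowest spread of the perilipins relative to its level, and its libraries were separated with LNA1. It had 119 to 133 CPM in the 6 ctrlA libraries (median 127), 104 to 114 CPM with LNA1 (median 107) and 120 to 145 CPM with LNA2 (median 122). The values with LNA1 did not overlap those of ctrlA or those of LNA2, which held for 1.05% and 1.22% of all genes, while for LNA2 against ctrlA 1.84% of all genes and 0 of the 8 did not overlap. The log2 fold change of Plin3 with LNA1 was −0.22 (SE 0.0730, adjusted p = 0.362, edgeR; 0.0100 with the replicate block), lower in 6 of 6 pairs. With DESeq2 and no block the adjusted p was 0.00837, so that Plin3 missed the adjusted threshold with edgeR but not with DESeq2. Its change is below the fold limit in each of these fits.

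Plin2 lay at a median of 1323 CPM in ctrlA (1178 to 1659), 1088 with LNA1 (915 to 1467) and 1442 with LNA2 (1160 to 1808). It was lower with LNA1 in 6 of 6 pairs (log2 fold change −0.28, SE 0.142, adjusted p = 0.904, edgeR; 0.0378 with the block), although the libraries overlapped. Plin1 was lower with LNA1 in 6 of 6 pairs too (−0.23, SE 0.269, adjusted p of 1; 0.00449 with the block; −0.09 without the stimulated LNA1 library of replicate 2), at medians of 732 CPM in ctrlA, 611 with LNA1 and 717 with LNA2. With the block and no fold limit, Plin1, Plin2 and Plin3 were called with LNA1, 3 of 8 genes against 7.8% of all genes.

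With LNA2 the lowest adjusted p belonged to Plin5, whose log2 fold change by edgeR was −0.46 (SE 0.118, adjusted p = 0.0735). In unstimulated cells Plin5 was at 9.84 ± 1.71 CPM under ctrlA and 7.32 ± 1.02 CPM under LNA2, and with isoproterenol 24.6 ± 0.858 against 17.6 ± 2.48 CPM (SD, n = 3). All 6 pairs were lower, by 0.22 to 0.65 on the log2 scale. Over the 18 fits without 1 library the adjusted p ranged from 0.0559 to 0.196, while it was 0.00510 with the block and 0.00870 with DESeq2 without the block. With LNA1 the log2 fold change of Plin5 was −0.28 (SE 0.118, adjusted p = 0.699), lower in 4 of 6 pairs.

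Bscl2 and Cidec followed with LNA2. Bscl2 had 73.9 ± 7.10 CPM in ctrlA and 59.4 ± 8.42 CPM with LNA2 (SD, n = 6), lower in 6 of 6 pairs (log2 fold change −0.32, SE 0.115, adjusted p = 0.273, edgeR; 0.00417 with the block). Cidec had 1639 ± 271 and 1408 ± 218 CPM, lower in 5 of 6 pairs (−0.21, SE 0.101, adjusted p = 0.495; 0.0208 with the block). With the block and no fold limit these were, with Plin5, 3 of 8 genes called against 20.6% of all genes. Plin4 (0.17, SE 0.204), Plin2 (0.07, SE 0.141), Fitm2 (0.04, SE 0.230) and Plin3 (0.00436, SE 0.0729) had positive log2 fold changes with LNA2, with adjusted p of at least 0.939 (edgeR). Without the stimulated LNA2 library of replicate 3 that of Plin4 was 0.00097 and that of Plin2 0.01. That of Plin4 was 0.29 without the stimulated LNA2 library of replicate 2, and that of Plin2 0.14 without the stimulated ctrlA library of replicate 2. Those of Fitm2 and Plin3 changed their sign. Fitm2 went from −0.08 (without stimulated ctrlA, replicate 2) to 0.15 (without unstimulated LNA2, replicate 2). Plin3 went from −0.04 to 0.04 (without stimulated LNA2 of replicate 3 and of replicate 2). Of the 4 preadipocyte markers tested, Pdgfra rose with both LNAs (log2 fold change 0.89 with LNA1 and 0.71 with LNA2, adjusted p = 0.00743 and 0.0121, edgeR). The others were not called: Pdgfrb had −0.22 and 0.20, Cd34 −0.34 and −0.67, and Ly6a 0.15 and 0.57, with Ly6a called with LNA2 under the block (0.66, adjusted p = 0.00549). The median of this list was −0.04 with LNA1 and 0.39 with LNA2. The 5 macrophage markers summed to 8.23 to 24.7 CPM in ctrlA, 11.9 to 30.2 CPM with LNA1 and 14.0 to 44.3 CPM with LNA2. The macrophage markers tested, Cd68 and Csf1r, were not called with LNA2 by edgeR (log2 fold change 0.88 and 1.73, adjusted p = 0.0570 and 0.138) but were called with the block (0.88 and 1.71, adjusted p = 7.74e-05 and 0.00677). None of the 6 adipocyte markers was called with either LNA (median −0.08 with LNA1 and −0.17 with LNA2). With the block and LNA2, Pparg (−0.20, adjusted p = 0.00487), Cd36 (−0.28, adjusted p = 0.00913) and Fabp4 (−0.21, adjusted p = 0.0303) had an adjusted p below 0.05 without reaching the fold limit. The rest of this list did not pass the adjusted p in that fit. Lpl was lower there as well (−0.14), whereas Adipoq (0.10) and Cebpa (0.04) had the opposite sign. Of the 7 brown adipocyte markers tested none was called with either LNA, with a list median of −0.14 with LNA1 and −0.32 with LNA2. Among them Elovl3 had log2 fold changes of −0.43 and −0.37 (adjusted p = 0.393 and 0.316, edgeR; 9.31e-04 and 8.70e-04 with the block), Ucp1 had −0.35 and −0.40 (0.983 and 0.508; 0.282 and 0.121 with the block) and Ppargc1a −0.12 and −0.31 (1 and 0.258; 0.458 and 0.0190 with the block). The remaining brown adipocyte markers, with LNA1 and LNA2 in turn, were Cox8b (−0.64 and −0.95), Cox7a1 (−0.14 and −0.24), Cidea (−0.02 and −0.32) and Prdm16 (0.14 and −0.0066). The list of brown adipocyte markers summed to 340 to 550 CPM in ctrlA, 257 to 448 CPM with LNA1 and 264 to 425 CPM with LNA2. The part of these markers in the differences of Plin5, Bscl2 and the other genes was not tested.

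**Figure D4:**
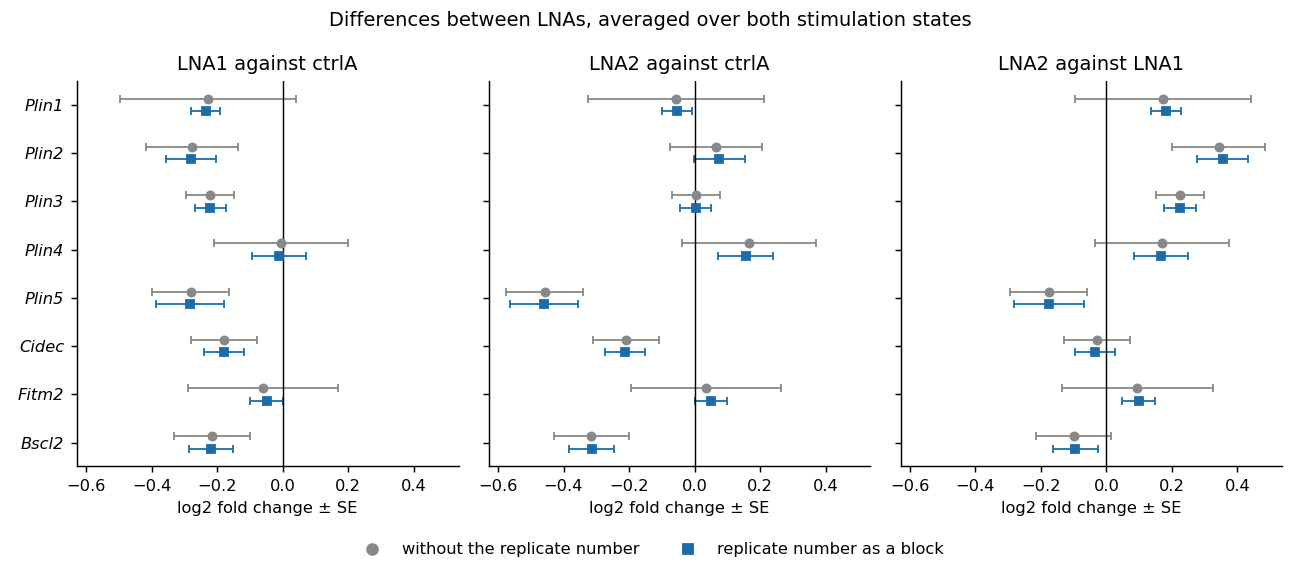
Log2 fold change ± SE of the 8 genes for LNA1 against ctrlA, LNA2 against ctrlA and LNA2 against LNA1, each averaged over both stimulation states (6 against 6 libraries), without the replicate number (circles) and with it as a block (squares). The estimates hardly move between the fits while the SE shrinks, most for Plin1 and Fitm2.

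The 2 LNAs were also compared directly, since both were designed against the same RNA. Again 0 of 8 genes were called (0.923% of all genes; 2 of 8 at an unadjusted p below 0.05 with edgeR, against 9.2% of all genes; 0 called with DESeq2). Plin2 was higher with LNA2 than with LNA1 in 6 of 6 pairs (log2 fold change 0.34, SE 0.142, adjusted p = 0.429, edgeR; 0.00609 with the block). So was Plin3 (0.22, SE 0.0730, adjusted p = 0.237; 0.00526 with the block and 0.00540 with DESeq2 without it), and Plin1 (0.17, SE 0.269, adjusted p of 1.00; 0.0129 with the block), whose log2 fold change was 0.05 without the stimulated LNA1 library of replicate 2 and 0.31 without the unstimulated LNA2 library of replicate 2. With the block and no fold limit these 3 of 8 genes were called, against 15.4% of all genes. Plin5 had a log2 fold change of −0.18 (SE 0.119) in this comparison, and of −0.11 without the unstimulated LNA1 library of replicate 4. Of the markers of other cells, none was called without the block. With it Csf1r (2.06, adjusted p = 0.00496) and Ly6a (0.51, adjusted p = 0.0307) were called higher with LNA2 than with LNA1, and Pdgfrb (0.42, adjusted p = 0.00104) and Cd68 (0.46, adjusted p = 0.0124) passed the adjusted p but not the fold limit. The remaining preadipocyte markers tested had the opposite sign in that fit, Pdgfra with −0.18 (adjusted p = 0.292, edgeR) and Cd34 with −0.31 (adjusted p = 0.563). The list medians were 1.31 for the 2 macrophage and 0.12 for the 4 preadipocyte markers tested. The part of these markers in the differences of Plin1, Plin2 and Plin3 was not tested.

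Whether the response to isoproterenol differed with the LNA was tested by interactions. For LNA1 and for LNA2 0 of 8 genes and 0% of all genes were called by edgeR. At an unadjusted p below 0.05 there were 105 (0.702%) and 116 (0.776%) of all genes but none of the 8. These shares lie under the limit of 0.05 itself, so the test without the block was strict. With the block 393 and 807 of all genes were below that limit, and still 0 of 8 genes were called. DESeq2 called 0 and 2 of all genes and none of the 8. For Plin5 the difference of the log2 fold changes between LNA1 and ctrlA cells was −0.28 (SE 0.236) and between LNA2 and ctrlA cells −0.06 (SE 0.237). Without 1 library each these ranged from −0.40 (unstimulated ctrlA, replicate 2) to −0.15 (unstimulated LNA1, replicate 4) and from −0.18 (stimulated LNA2, replicate 3) to 0.07 (unstimulated ctrlA, replicate 3), so that the second changed its sign. For Cidec these differences were −0.05 (SE 0.202) and 0.18 (SE 0.202). The first ranged from −0.10 without the stimulated LNA1 library of replicate 3 to −0.0044 without that of replicate 4, and the second was 0.01 without the stimulated LNA2 library of replicate 3 and 0.29 without that of replicate 4. That none was called does not show that the responses were alike. The largest estimate was that of Plin4 with LNA2 (0.41, SE 0.409), which was 0.08 without the stimulated LNA2 library of replicate 3 and 0.63 without that of replicate 2. With the block this estimate was 0.38 (SE 0.166, adjusted p = 0.810, edgeR).

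When all 6 groups were tested together, with 0.001 as the limit of the adjusted p, Plin5 was called (adjusted p = 6.54e-05, edgeR), 1 of 8 genes against 0.455% of all genes. With the replicate block Plin1 (adjusted p = 2.46e-04) and Cidec (2.06e-04) joined it, 3 of 8 genes against 8.93% of all genes. DESeq2 called 2 of 8 genes (3.72% of all genes) and, with the block, 7 of 8 (19.1%). The adjusted p of Plin5 in this test stayed at or below 4.05e-04 without any single library.

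The genes also varied among themselves between libraries. The mean of each replicate number was first removed from log2 CPM. Pearson r over the 18 libraries was then 0.839 for Plin1 and Cidec, 0.824 for Plin2 and Plin3 and 0.759 for Cidec and Bscl2. It was 0.744 for Plin1 and Fitm2 and −0.746 for Plin5 and Fitm2. As measured, the same pairs had r of 0.335, 0.578, 0.489, 0.964 and −0.249. Plin1 and Plin4, 0.717 as measured, had −0.179 once the replicate means were removed, and Plin1 and Plin2 went from −0.495 to 0.207. These values share libraries, groups and treatment, and are a description.

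The genes most like each of the 8 by the same measure over the 18 libraries are named here without reference to function. They were Cenpm (r = 0.981), Echdc2 (0.972) and Ppp2ca (0.964) for Plin5, and Lpcat3 (0.974) and Mcam (0.968) for Cidec. For Plin1 they were Mfsd12 (0.979), Slc25a1 (0.959) and Pmvk (0.946), for Plin2 Umps (0.946), Txn2 (0.925) and Fam50a (0.924), and for Plin4 Ppp2r1a (0.962), Tbl3 (0.948) and Neurl4 (0.946). Plin3 was most like Pwwp2b (0.908), Gdpd5 (0.903) and Neu1 (0.887), Fitm2 like Tnrc6c (0.895), Kidins220 (0.892) and Strn (0.876), and Bscl2 like H2bc4 (0.949), Atp5b (0.947) and Idh2 (0.943). They were chosen as the highest of 14949 genes, so that a high r is partly a result of the choice.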

How the data were processed

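Polyadenylated RNA was sequenced as paired-end reads from NEBNext Ultra II libraries. According to the submitters' processing notes and the methods, the authors trimmed reads with cutadapt, quantified them with salmon against Gencode M22 (GRCm38) and used DESeq2. Versions were not given in the sources used here. The deposited values are expected counts per gene, whole numbers without scaling to depth (0 values were not whole). No value was rounded again.

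Counts were analysed in R 4.3.3 with edgeR 4.0.16: filterByExpr (minimum count 10, total 15), TMM, 1 coefficient for each of 6 groups over all 18 libraries, glmQLFit and glmQLFTest, two-sided, with Benjamini-Hochberg adjustment over 14949 genes. Calls required an adjusted p below 0.05 and an absolute log2 fold change above 0.5, or 0.001 in the joint test. In DESeq2 the study set the first 2 limits on s-values and shrunken fold changes and the limit of 0.001 on p values of a likelihood ratio test, whereas here they apply to adjusted p values and fold changes without shrinkage. CPM use TMM-scaled library sizes, with a floor of 3 counts, which like all counting limits covers counting error only, since reads carried no molecular identifiers. Within groups 0 of 18 pairs of libraries were identical. DESeq2 1.42.0 and other settings were alternatives.

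Same-numbered libraries deviated together from their group means (45 correlations, 0.240 to 0.722, median 0.432), so the replicate number was taken to pair them, and fits with it as a block are given where they change a result. Annotation comes from GENCODE M21 (GRCm38), 1 release older than that of the authors, with coordinates counted from 1. The named genes were the 9 genes, up to 4 called genes per list and contrast with the largest change, and the 3 genes most correlated with each, of which 1 is not reported here. Dio2, Ptprc, Adgre1, Kdr, Myod1, Pdgfrb, Cd34, Csf1r, Acta1, Elovl3, Cox7a1, Cox8b, Prdm16 and the adipocyte markers other than Adipoq were named as markers after their values were seen. The genes and lists were chosen with earlier results of these data known. The fit was tested on simulated data, of which no result is given here.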

Additional observations from a re-analysis of the deposited data

How the results depend on the processing

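The call of Plin5 with isoproterenol, and its absence for the other 7 genes, did not change with DESeq2, RLE size factors, no filter, a filter at 5 CPM, the replicate block or the libraries of replicates 3 and 4 only. Under these settings the log2 fold change of Plin5 lay between 1.20 and 1.26. In the joint test the count of called genes was 1 (0.455% of all genes) and went to 3 with the replicate block (8.93%). It was 2 with DESeq2 (3.72%) and 7 with DESeq2 and the block (19.1%). Without the fold limit 2 genes were called with isoproterenol (4.58% of all genes). Without the fold limit and with the replicate block, added after the data were seen, 5 were called with isoproterenol (26.4% of all genes). In this setting 3 were called with LNA1 (7.8%), 3 with LNA2 (20.6%) and 3 for LNA2 against LNA1 (15.4%). With isoproterenol it called 3 in ctrlA cells (7.88%), 3 in LNA1 cells (9.84%) and 2 in LNA2 cells (9.55%). The block changed no other count. Leaving out 1 library at a time, the count with isoproterenol in LNA1 cells ranged from 0 to 1 (0 without the unstimulated library of replicate 3), and the other 9 counts did not change.

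Small log2 fold changes turned their sign. That of Plin3 with LNA2 was −0.000105 with DESeq2 and the replicate block and −0.0107 without a filter. That of Plin4 with LNA1 was 0.0256 with a filter at 5 CPM and 0.0396 in replicates 3 and 4 only. Without 1 library each, the ranges that crossed 0 in the averaged comparisons were −0.109 to 0.0286 for Cidec in LNA2 against LNA1, −0.172 to 0.0680 for Fitm2 with LNA1, −0.0776 to 0.151 with LNA2 and −0.0217 to 0.211 in LNA2 against LNA1, −0.162 to 0.0805 for Plin1 with LNA2, −0.0404 to 0.00798 for Plin3 with isoproterenol and −0.0378 to 0.0437 with LNA2, and −0.0804 to 0.107 for Plin4 with LNA1. Interaction estimates also crossed 0 for Plin1, Plin2, Plin3, Plin4, Fitm2 and Bscl2 with LNA1 and for Plin1, Plin5, Fitm2 and Bscl2 with LNA2. The cause was not tested. None of these values was called. Of the 8 genes Plin5 had the fewest counts (87 to 369 per library). Fitm1 had 8 counts over all 18 libraries, and whether deeper sequencing would give it a measurable level was not tested.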
